A study of Arabidopsis thaliana with 6 samples.

Results

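Rosette leaves harvested 4 h after spraying were set against leaves harvested 2 h after spraying, over paraquat and mock treatment together. The comparison used 4 of the 6 Affymetrix ATH1 arrays, 2 arrays an hour, and 13898 of the 22746 non-control probe sets, those with a signal above 86 on at least 2 of the 4 arrays. The second-highest of a probe set's 4 signals decided whether it entered: AT4G14820 entered with 86.1 and AT4G13820 with 86.2, and AT1G26320 stayed out with 85.9. Of the probe sets tested, 12658 were above 86 on all 4 arrays, while 123 passed through both 4 h arrays alone and 201 through both 2 h arrays alone, and a probe set of those kinds had to differ between the hours.

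All plants carried the flu1-1 allele in the Landsberg erecta background, the mock-sprayed plants too, and no wild type is among the samples. The 4 groups were paraquat at 4 h, mock at 4 h, paraquat at 2 h and mock at 2 h, with 1 array each. Paraquat was sprayed in 0.1% Tween and the mock spray was 0.1% Tween alone. For the paraquat dose the sample titles say 20 mM, while the protocol says 20 microM. Plants were 3 weeks old and had grown in continuous light, the leaves of 5 to 6 plants made a sample, and RNA of 2 experiments was pooled before labelling, so each array holds a pool and shows no spread between experiments.

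Paraquat takes electrons from photosystem I in the light and passes them to oxygen, which gives superoxide and then hydrogen peroxide in the chloroplast. FLU is a negative regulator of chlorophyll synthesis, and flu mutants make too much of the photosensitiser protochlorophyllide in the dark, which produces singlet oxygen when light returns. Leaves kept in continuous light do not build it up. Spraying by itself is a touch and wetting stimulus for a leaf, and early touch and stress transcripts are known to be short-lived.

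The 4 arrays shared a trimmed mean signal of 500.04, had median signals between 157.8 and 161.4, and correlated at r = 0.976 to 0.986 on the log scale. RCA, the Rubisco activase of green leaf tissue, read 15210 and 14855 in 4 h leaves (paraquat, mock) and 14438 and 16284 in 2 h leaves. The other markers that could be read were both of guard cells: FMA, with 317 and 255 at 4 h and 260 and 315 at 2 h, and AT1G22690, which fell (1577 and 1253 at 4 h, 2383 and 2231 at 2 h, mean change -0.70, limma adjusted p = 0.015). Markers of phloem companion cells, epidermis, trichome, root, flower and xylem were not analysed here, and fewer cells of a type cannot be told apart from less RNA per cell. The 25S ribosomal RNA control was uneven, at 243 and 92.8 in 4 h leaves (paraquat, mock) and 111 and 131 in 2 h leaves, and the part of this in any result was not tested. Harvest hour cannot be told apart from anything else that the 2 arrays of an hour share, such as clock time.

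The question was which transcripts moved the same way between 2 and 4 h whichever spray was used. Each gene's change is the log2(signal + 34) value at 4 h minus that at 2 h, taken in each treatment and then averaged, with limma's moderated SE after ±. The 2 treatments stand in for replicates, so a change that truly depended on paraquat counts as error and lowers the chance of a call. Of the 13898 probe sets, 712 (5.12%) rose and 563 (4.05%) fell at a limma adjusted p under 0.05, and 3362 had an unadjusted p under 0.05. The rises include 34 of the 123 probe sets above 86 on both 4 h arrays alone. The falls include 27 of the 201 above it on both 2 h arrays alone. Those probe sets had to differ between the hours, so their calls are no test. Every called probe set had the same sign in both treatments, which the test itself imposes. The only residual of a probe set is the difference between its treatments, and changes of opposite sign make it too large to pass. That residual has 1 degree of freedom, beside 6.21 from limma's variance trend over all probe sets tested. The moderated SE is thus mostly shared and is not a gene's own spread between treatments. Among probe sets naming 1 gene, taking the brightest for each, 313 of 7393 genes rose and 272 fell (4.23% and 3.68%).

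With only 1 residual degree of freedom these calls are approximate. In simulated arrays of this design limma called more unchanged probe sets than its threshold implies, and a prior fitted by maximum likelihood, a setting added after the data were seen and called the stricter prior from here on, left 532 higher and 386 lower. Fits without 1 array, here and below, start from all 6 arrays, so both 1 h arrays enter them. With all 6 arrays 722 rose and 606 fell. The fewest calls were left without the mock 2 h array, and the next fewest without the paraquat 2 h array.

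Across all 13898 probe sets the paraquat and mock changes had r = 0.59 (Spearman 0.52) and the same sign in 67.2%. These are values across probe sets of 4 arrays, not across replicates. A change of at least 2-fold in both treatments was found for 127 probe sets upward (0.914% of those tested) and 57 downward (0.41%). Taken alone, 219 probe sets were at least 2-fold higher in paraquat leaves and 350 in mock leaves, and 103 were at least 2-fold lower in paraquat leaves and 236 in mock leaves. The 127 shared rises are 58.0% of the paraquat rises and 36.3% of the mock rises, and the 57 shared falls are 55.3% and 24.2% of the falls. Changes were smaller in paraquat leaves in 67.1% of the called rises and 68.2% of the called falls, beside 55.7% of all probe sets tested.

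**Figure D1:**
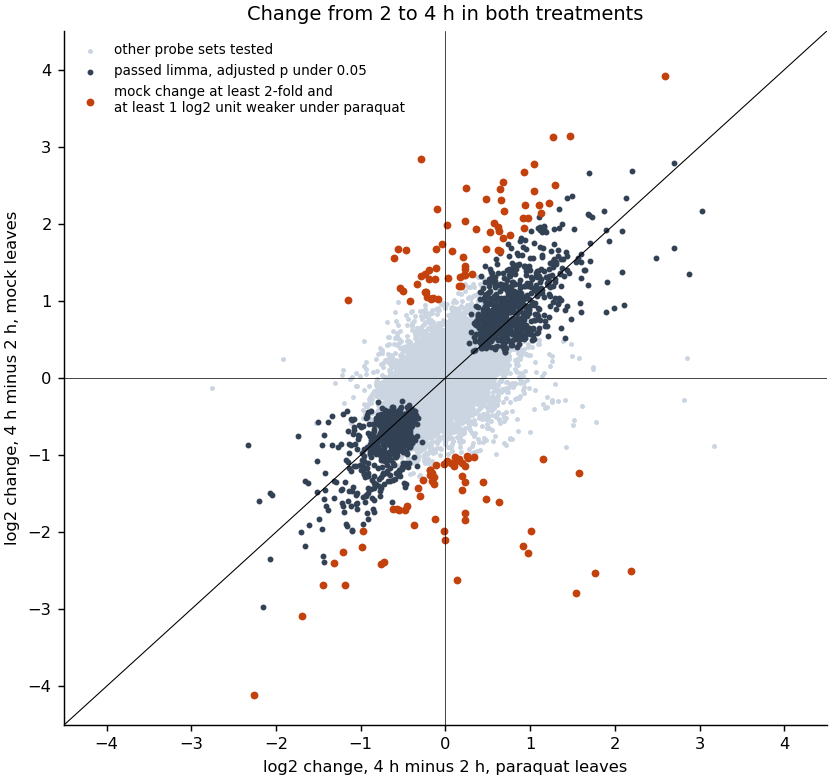
Each point is 1 of 13898 probe sets, with its log2 change between 2 and 4 h in paraquat leaves on the x axis and in mock leaves on the y axis; the diagonal marks equal change. Dark points passed limma at an adjusted p under 0.05. They lie along the diagonal in both directions because a difference between the treatments counts as error in the test. Orange points are the 67 rises and 60 falls of at least 2-fold in mock leaves that were at least 1 log2 unit weaker in paraquat leaves.

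SAG29 (AT5G13170), the sucrose transporter SWEET15 known from senescing leaves, had the highest mean change at the pseudocount used. Its signal was 230 in paraquat and 553 in mock leaves at 4 h, and 9.7 and 4.8 at 2 h. Both 2 h signals are far below the floor of 86, so the gene entered through the 4 h arrays alone, had to differ, and its mean log2 change of 3.26 is a description with no test. The change was 4.56 with a pseudocount 4 times smaller and 1.81 with one 4 times larger, where AT2G34810, at 1.86, lay above it. At 1 h it had read 170 in paraquat and 92.0 in mock leaves, so the 2 h arrays held the lowest values of the time course in both treatments.

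AT2G34810, of the berberine bridge enzyme family of oxidases, had signals of 1076 and 1243 in paraquat and mock leaves at 4 h, against 220 and 220 at 2 h. Its change of 2.23 ± 0.14 (limma adjusted p = 0.0021) was nearly the same in paraquat (2.13) and mock leaves (2.33). The tau-class glutathione transferase gene GSTU16 moved as evenly, with 607 and 604 at 4 h, against 117 and 137 at 2 h (2.00 ± 0.15, limma adjusted p = 0.0024). In both genes the 4 h and 2 h arrays stood well apart, and the 1 h signals lay near those of 2 h.

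AT1G60590, of the pectin lyase-like family, had 1011 and 389 in paraquat and mock leaves at 4 h, against 127 and 97.9 at 2 h (2.19 ± 0.24, limma adjusted p = 0.0048). AT1G57590, a pectin acetylesterase gene, had 1011 and 388 at 4 h, against 108 and 132 at 2 h (2.11 ± 0.32, limma adjusted p = 0.012). Both were higher in paraquat than in mock leaves at 4 h, and the rise in paraquat leaves exceeded the rise in mock leaves by 1.01 and 1.54 log2 units.

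AT1G10585, a bHLH transcription factor gene, read 355 and 366 at 4 h (paraquat, mock), against 71.9 and 55.4 at 2 h. It too entered through the 4 h arrays alone, so its change of 2.02 is given with no test, and it was 1.31 with a pseudocount 4 times larger. AT5G48490, which encodes a small lipid-transfer protein, rose by 1.93 ± 0.21 (limma adjusted p = 0.0045) and AT2G37750 by 1.91 ± 0.18 (limma adjusted p = 0.0034). SKP2A, the F-box subunit of a ubiquitin ligase that acts in cell cycle control, rose by 1.74 ± 0.23, with 1028 and 1290 at 4 h and 422 and 241 at 2 h (limma adjusted p = 0.0087).

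AT5G39520 rose by 1.80 ± 0.36 (limma adjusted p = 0.027), but was lost with the stricter prior (adjusted p = 0.055), without the mock 4 h array (0.75, limma adjusted p = 0.16) and without the mock 2 h array (1.54, limma adjusted p = 0.093). AT3G02480, of the late embryogenesis abundant protein family known from drying tissue, read 185 and 370 at 4 h in paraquat and mock leaves, against 71.9 and 40.9 at 2 h. It entered through the 4 h arrays alone, so its change of 1.74 is given with no test, and it was 1.07 with a pseudocount 4 times larger. In both genes the mock changes of 2.67 and 2.43 were larger than their paraquat changes of 0.93 and 1.05.

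**Figure D2:**
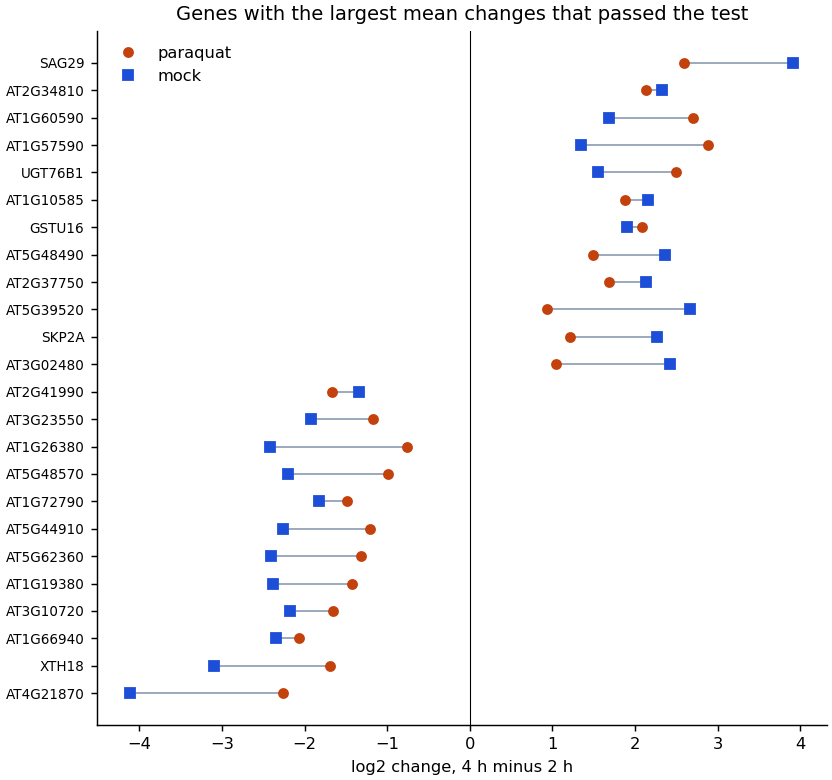
Log2 change between 2 and 4 h for the 12 highest and 12 lowest mean changes among named genes that passed limma, with paraquat leaves as circles and mock leaves as squares, 1 array per hour in each. Both points of each gene lie on the same side of 0 by the choice of genes, and the mock point is the farther one in most of them. SAG29, AT1G10585, AT3G02480 and AT2G41990 entered through 1 hour alone and had to differ, so their passing is no test.

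UDP-glycosyltransferases attach sugars to hormones, flavonoids and foreign compounds. Of 27 tested genes matched to the family by symbol or synonym, 9 rose (33.3%, beside 4.23% of all genes tested) and 2 fell. At least 2-fold higher in both treatments were 5. The median change was 0.51, with 0.31 in paraquat and 0.44 in mock leaves, beside a median change of -0.03 over all genes tested. UGT76B1, whose enzyme conjugates salicylic acid and isoleucic acid, had signals of 1796 and 1794 in paraquat and mock leaves at 4 h, against 292 and 587 at 2 h (2.02 ± 0.21, limma adjusted p = 0.0042). It had read 122 and 97.4 at 1 h, so its level was higher at each later hour in both treatments.

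UGT76E11 had 968 and 753 at 4 h in paraquat and mock leaves, against 285 and 264 at 2 h (1.53 ± 0.14, limma adjusted p = 0.0034). UGT74D1, whose enzyme can glucosylate auxin, had 928 and 782 at 4 h, against 282 and 299 at 2 h (1.45 ± 0.14, limma adjusted p = 0.004). Both genes were higher in each 4 h array than in either 2 h array. Among the flavonol glycosyltransferases, UGT78D1, a rhamnosyltransferase, rose by 1.24 ± 0.14 (limma adjusted p = 0.0054), and UGT78D2, a glucosyltransferase, by 0.62 ± 0.13 (limma adjusted p = 0.028). GT72B1, known for conjugating chlorinated phenols, rose by 1.19 ± 0.12, UGT88A1 by 0.95 ± 0.13 and UGT84A3, which acts on hydroxycinnamic acids, by 0.89 ± 0.12 (limma adjusted p = 0.0042, 0.01 and 0.0099). UGT72B3 rose by 0.79 ± 0.19 (limma adjusted p = 0.049), a call lost with the stricter prior (adjusted p = 0.074).

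UGT85A2 fell by 1.12 on the log2 scale, with 139 and 83.7 at 4 h in paraquat and mock leaves, against 301 and 253 at 2 h (limma adjusted p = 0.013). UGT71C5, whose enzyme glucosylates abscisic acid, had a change of -0.83 ± 0.18 (limma adjusted p = 0.032), a call lost with the stricter prior (adjusted p = 0.055) and without either mock array (-0.54 without 4 h and -0.64 without 2 h, limma adjusted p = 0.084 and 0.2). UGT78D2 and UGT72B3 were also lost without either mock array, with changes of 0.52 to 0.75 (limma adjusted p = 0.098 to 0.4), and UGT78D2 without the paraquat 2 h array (0.50, limma adjusted p = 0.28).

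A few glycosyltransferase genes differed between the treatments instead. UGT73B5 read 995 in paraquat and 102 in mock leaves at 4 h, against 274 and 91.2 at 2 h, a change of 1.74 in paraquat and 0.12 in mock leaves. IAGLU encodes an indole-3-acetate glucosyltransferase but is not in the group matched by symbol or synonym. It read 873 and 300 at 4 h and 238 and 269 at 2 h (1.74 and 0.14). In the opposite way, UGT85A7 had a change of -0.29 in paraquat and 1.33 in mock leaves. None of these 3 passed the averaged test (limma adjusted p = 0.15, 0.13 and 0.45).

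**Figure D3:**
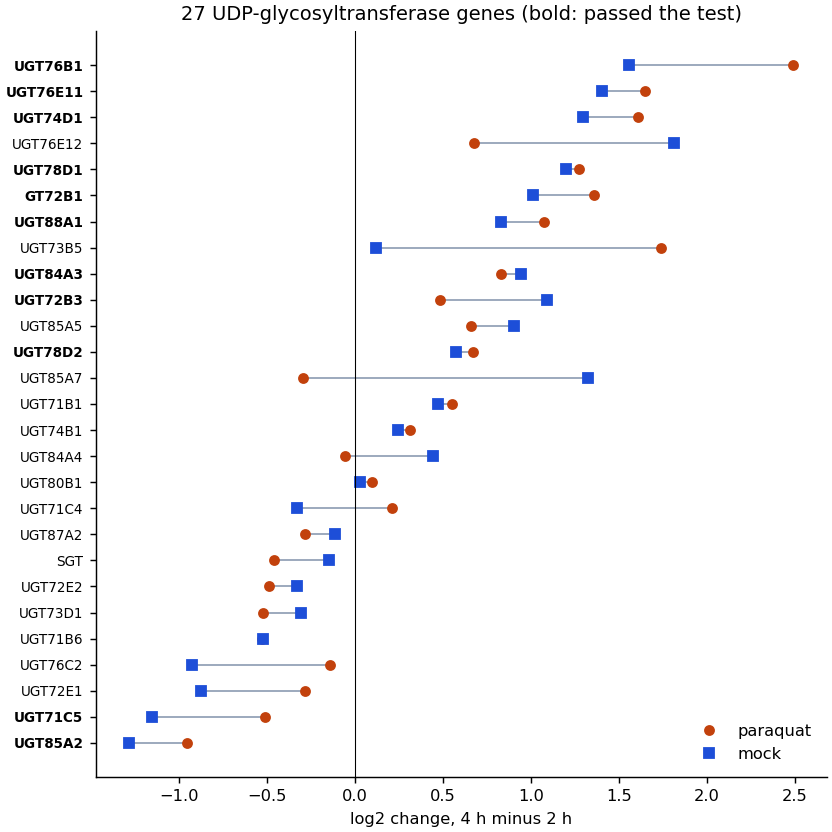
Log2 change between 2 and 4 h of the 27 tested UDP-glycosyltransferase genes matched by symbol or synonym, with paraquat leaves as circles and mock leaves as squares. Genes are ordered by mean change. The names in bold passed limma: 9 of them lie right of 0 and 2 left of it in both treatments, while UGT73B5, UGT85A7 and UGT76E12 have the widest gaps between treatments.

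SWEET proteins transport sugars across membranes. Of 7 tested genes with that symbol, 3 rose and none fell, beside 4.23% higher and 3.68% lower of all genes, with a median of 0.36, and 1 of the 3 kept its call with the stricter prior. SWEET4 had 338 and 364 at 4 h in paraquat and mock leaves, against 154 and 179 at 2 h (0.95 ± 0.15, limma adjusted p = 0.014). SWEET13 (0.82 ± 0.19, limma adjusted p = 0.038) and SWEET2 (0.61 ± 0.14, limma adjusted p = 0.043) passed only with limma's own prior (adjusted p = 0.055 and 0.06 with the stricter one). Both also failed without the mock 4 h or the paraquat 2 h array (changes of 0.40 to 0.85, limma adjusted p = 0.096 to 0.28), SWEET13 without the paraquat 4 h array (0.79, limma adjusted p = 0.098) and SWEET2 without the mock 2 h array (0.59, limma adjusted p = 0.26). SWEET11, which loads sucrose into the phloem, had a change of -0.27, and SWEET10 one of -0.43. Of 3 starch genes tested, DPE1, a disproportionating enzyme, and PWD, a starch-phosphorylating enzyme, had changes of -0.60 ± 0.15 and -0.51 ± 0.11 that passed (limma adjusted p = 0.049 and 0.03). DPE1 failed with the stricter prior (adjusted p = 0.068), and both failed without any 1 of the mock 4 h, paraquat 2 h and mock 2 h arrays (limma adjusted p = 0.17 to 0.34).

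Cell wall genes moved in both directions. Of 12 tested genes of xyloglucan endotransglucosylases and expansins, enzymes and proteins that loosen the wall, 2 rose and 2 fell, beside 4.23% and 3.68% of all genes. EXPA16, an expansin, had 469 and 768 at 4 h in paraquat and mock leaves, against 165 and 174 at 2 h (1.64 ± 0.18, limma adjusted p = 0.005). EXGT-A3, a xyloglucan endotransglucosylase, had 2350 and 1994 at 4 h, against 1148 and 506 at 2 h (1.46 ± 0.20, limma adjusted p = 0.0094). Their 4 h arrays lay above both 2 h arrays, and at 1 h the signals were intermediate (365 and 256 for EXPA16, 1779 and 1156 for EXGT-A3).

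Trichome birefringence-like (TBL) proteins acetylate wall polymers, and of 11 tested genes 2 rose and 3 fell, beside 4.23% and 3.68% of all genes. TBL26 rose by 1.11 ± 0.12 (limma adjusted p = 0.0045) and TBL37 by 0.79 ± 0.14 (limma adjusted p = 0.016), the second not without the paraquat 2 h array (0.69, limma adjusted p = 0.096). TBL45 had a change of -1.27 ± 0.15 (limma adjusted p = 0.0055). TBL38 had one of -0.81 ± 0.20 (limma adjusted p = 0.047), lost with the stricter prior (adjusted p = 0.066) and without any 1 of the mock 4 h, paraquat 2 h and mock 2 h arrays (limma adjusted p = 0.1 to 0.2).

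In the short list of abscisic acid, drought and cold genes, 1 of 4 tested rose and none fell, beside 4.23% higher and 3.68% lower of all genes. COR47, a dehydrin that protects cells against freezing and drying, had 5176 and 6229 at 4 h in paraquat and mock leaves, against 2321 and 1657 at 2 h (1.52 ± 0.17, limma adjusted p = 0.005). ALDH7B4, an aldehyde dehydrogenase known from drought and salt stress, is not on the list and was chosen after its values were seen. It rose by 1.67 ± 0.24 (limma adjusted p = 0.01), with 2443 and 3731 at 4 h, against 1119 and 764 at 2 h. Of 8 tested genes with the ALDH symbol 1 rose and 1 fell. The other 3 list members differed between treatments and are described with the weaker changes.

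Some further rises were chosen after their values were seen. EX1 (EXECUTER1), a chloroplast protein required for the singlet oxygen response of flu, had 889 and 964 at 4 h in paraquat and mock leaves, against 509 and 459 at 2 h (0.89 ± 0.13, limma adjusted p = 0.011), and 639 and 607 at 1 h. Its call was lost without the mock 2 h array (0.81, limma adjusted p = 0.061). AT3G13610, the feruloyl-CoA hydroxylase of coumarin synthesis, rose by 1.63 ± 0.23 (limma adjusted p = 0.01), a call lost without the mock 4 h array (0.95, limma adjusted p = 0.055). CHIL, a chalcone isomerase-like protein of flavonoid synthesis, rose by 1.22 ± 0.18 (limma adjusted p = 0.01).

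UBC32, a ubiquitin-conjugating enzyme of the endoplasmic reticulum, rose by 0.92 ± 0.18 (limma adjusted p = 0.023), but not without the mock 4 h array (0.57, limma adjusted p = 0.061) or the mock 2 h array (0.73, limma adjusted p = 0.14). BSMT1, which makes methyl salicylate, had 87.8 and 137 at 4 h in paraquat and mock leaves, against 30.7 and 6.5 at 2 h. It entered through the 4 h arrays alone, so its change of 1.49 is given with no test, and it was 2.29 with a pseudocount 4 times smaller and 0.68 with one 4 times larger.

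The groups of this paragraph stand beside 4.23% higher and 3.68% lower of all genes tested. Of 3 antenna genes tested, LHCB4.2 of photosystem II passed with a rise of 0.59 ± 0.10 (limma adjusted p = 0.016), while LHCB4.1 had a change of -0.04 and LHCB4.3 one of 0.14. Of 4 tested genes of tetrapyrrole synthesis, the pathway FLU restrains, none passed, with changes from -0.32 (GSA1) to 0.04 (CHLM). Of 5 antioxidant enzyme genes, GR1, a cytosolic glutathione reductase, rose by 0.65 ± 0.14 (limma adjusted p = 0.035), while the plastid enzyme gene GR had a change of 0.22, SAPX, a stromal ascorbate peroxidase, 0.32, and ATMDAR2, a monodehydroascorbate reductase, -0.14. GR1 failed with the stricter prior (adjusted p = 0.059) and without the mock 4 h or mock 2 h array (0.38 and 0.53, limma adjusted p = 0.12 and 0.25), and LHCB4.2 failed without the mock 2 h array (0.55, limma adjusted p = 0.1). Of 8 autophagy genes, ATG8B rose by 0.88 ± 0.14 (limma adjusted p = 0.014), but failed without any 1 of the paraquat 4 h, mock 4 h and paraquat 2 h arrays (1.05, 0.72 and 0.60, limma adjusted p = 0.05, 0.19 and 0.26).

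AT4G21870, which encodes a protein of the small heat shock protein class, fell most. Its signal was 1118 in paraquat and 174 in mock leaves at 4 h, against 5500 and 3559 at 2 h, and it had been 3322 and 2952 at 1 h. The change was -3.19 ± 0.36 (limma adjusted p = 0.0054), with -2.26 in paraquat and -4.11 in mock leaves. The fall was present in both treatments, and at 4 h the paraquat level stood far above the mock level.

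XTH18, a xyloglucan endotransglucosylase of the growing wall, had 206 in paraquat and 39.7 in mock leaves at 4 h, against 745 and 595 at 2 h (-2.40 ± 0.30, limma adjusted p = 0.0071). Its 1 h signals of 1755 and 2328 were higher still, so it declined over all 3 hours in both treatments. EXLA1, an expansin-like gene, declined over the same hours, at 5867, 1639 and 624 in paraquat leaves at 1, 2 and 4 h, and at 6717, 1565 and 1102 in mock leaves. Its change between 2 and 4 h of -0.92 ± 0.20 (limma adjusted p = 0.032) was lost with the stricter prior (adjusted p = 0.059) and without the paraquat 2 h array (-0.64, limma adjusted p = 0.11).

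AT3G10720, a pectin methylesterase gene, had 814 and 663 at 4 h in paraquat and mock leaves, against 2638 and 3126 at 2 h (-1.92 ± 0.15, limma adjusted p = 0.0024). AT5G62360, of the pectin methylesterase inhibitor family, had 188 and 50.5 at 4 h, against 517 and 413 at 2 h (-1.86 ± 0.26, limma adjusted p = 0.0094). ATPMEPCRB, another pectin methylesterase gene, was chosen after its values were seen. Its signals were 4425, 1303 and 715 at 1, 2 and 4 h in paraquat leaves and 5521, 2346 and 879 in mock leaves (-1.11 ± 0.15, limma adjusted p = 0.0094). It and AT3G10720 were highest at 1 h in both treatments.

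AT1G66940 had a change of -2.20 ± 0.13 (limma adjusted p = 0.0021), almost as large in paraquat (-2.07) as in mock leaves (-2.34), with 430 and 318 at 4 h against 1910 and 1749 at 2 h. AT1G19380 had one of -1.91 ± 0.21 (limma adjusted p = 0.0045), and its signals of 6507 and 8006 at 1 h, in paraquat and mock leaves, lay above the 3820 and 4097 of 2 h. AT1G72790 had a change of -1.66 ± 0.17 (limma adjusted p = 0.0042). AT2G41990 read 75.7 and 54.0 at 4 h in paraquat and mock leaves, against 314 and 189 at 2 h. It entered through the 2 h arrays alone and had to differ, so its change of -1.50 is given with no test, and it was -0.93 with a pseudocount 4 times larger. AT3G23550, a transporter of the MATE family, stood at -1.55 ± 0.22 (limma adjusted p = 0.01).

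Of 6 tested WRKY transcription factor genes, 3 fell and none rose, beside 3.68% lower and 4.23% higher of all genes, with a median change of -0.55. WRKY53, a regulator of leaf senescence and defence, had 1530 and 1992 at 4 h in paraquat and mock leaves, against 2751 and 3844 at 2 h (-0.88 ± 0.10, limma adjusted p = 0.0062). WRKY47 (-0.99 ± 0.17, limma adjusted p = 0.016) and WRKY22, a factor of pattern-triggered immunity (-0.96 ± 0.20, limma adjusted p = 0.028), were the others. WRKY6 stood at -0.21, ZAP1 at 0.09 and WRKY20 at 0.01. Without the mock 2 h array the 3 calls were lost (-0.76, -0.61 and -0.90, limma adjusted p = 0.051, 0.24 and 0.1), as were those of WRKY47 and WRKY22 without the mock 4 h array (-0.99 and -0.62, limma adjusted p = 0.084 and 0.096) and that of WRKY47 without the paraquat 4 h array (-0.99, limma adjusted p = 0.061).

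AT5G44910, with a TIR domain as in immune receptors, fell to 137 and 41.5 at 4 h in paraquat and mock leaves, against 360 and 328 at 2 h (-1.73 ± 0.26, limma adjusted p = 0.011). EFR, the receptor kinase for bacterial elongation factor Tu, had a change of -0.85 ± 0.17 (limma adjusted p = 0.023), and FER (FERONIA), a receptor kinase that senses RALF peptides, one of -0.90 ± 0.13 (limma adjusted p = 0.01). Both were chosen after their values were seen. FER was lost without the mock 2 h array (-0.74, limma adjusted p = 0.061), and EFR without any 1 of the mock 4 h, paraquat 2 h and mock 2 h arrays (limma adjusted p = 0.055 to 0.15).

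Among touch and early stress genes, 1 of 8 tested rose and 2 fell, beside 4.23% and 3.68% of all genes. PUB22, a U-box ubiquitin ligase that dampens immune signalling, had 96.6 and 58.9 at 4 h in paraquat and mock leaves, against 223 and 179 at 2 h (-1.09 ± 0.18, limma adjusted p = 0.016), and 350 and 336 at 1 h. WRKY53 was the other fall. CML38, a calmodulin-like calcium sensor, rose by 0.97 ± 0.23 (limma adjusted p = 0.046). Its 1 h signal was above that of 4 h in paraquat leaves (773 against 417) and below it in mock leaves (429 against 589). It failed with the stricter prior (adjusted p = 0.078) and without the mock 4 h or mock 2 h array (0.40 and 0.79, limma adjusted p = 0.23 and 0.22). Of the circadian clock genes only GI (GIGANTEA) was tested, with 297 and 156 at 4 h and 242 and 224 at 2 h, a change of -0.09 ± 0.20 (limma adjusted p = 0.84).

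Of 12 tested cytochrome P450 genes 1 rose and 1 fell, a share near the 4.23% higher and 3.68% lower of all genes. CYP71B26 rose by 1.07 ± 0.23 (limma adjusted p = 0.032) and CYP71B22 had a change of -1.12 ± 0.25 (limma adjusted p = 0.038). Both were lost with the stricter prior (adjusted p = 0.059 and 0.065) and without the mock 4 h or mock 2 h array (limma adjusted p = 0.096 to 0.18). GSTU27 was the second glutathione transferase gene of 7 to pass (0.45 ± 0.11, limma adjusted p = 0.044), lost with the stricter prior (adjusted p = 0.058) and without the mock 4 h, paraquat 2 h or mock 2 h array (limma adjusted p = 0.092 to 0.27). CML30, a calmodulin-like gene, had a change of -0.63 ± 0.16 (limma adjusted p = 0.049), lost with the stricter prior (adjusted p = 0.065) and without any 1 of the 4 arrays (limma adjusted p = 0.078 to 0.33).

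The 1 h arrays entered neither hour of the comparison. In 85.5% of the called rises both 1 h signals were below both 4 h signals, beside 28.5% of all probe sets tested, and in 83.7% of the called falls both were above, beside 25.7%. The 4 h arrays are shared by the calls and these shares, so the shares describe the time course and are no second test. Between 1 and 2 h the called rises had a median change of -0.11 and the called falls one of 0.10, beside 0.03 for all, but the 2 h arrays also chose the calls, which pushes these medians against the direction of the call. SAG29 and EXPA16 were lower at 2 h than at 1 or 4 h, and XTH18, EXLA1 and ATPMEPCRB were already lower at 2 h than at 1 h.

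The second question was which changes were weaker under paraquat. A change was placed in this class where it was at least 2-fold in mock leaves and at least 1 log2 unit smaller, along the mock direction, in paraquat leaves. With 1 array per treatment and hour there is no test of such a difference. The class held 67 rises (0.482% of those tested) and 60 falls (0.432%). The mirror class, at least 2-fold in paraquat leaves and at least 1 log2 unit weaker in mock leaves, held 40 rises (0.288%) and 11 falls (0.0791%). Each class could draw only on changes of at least 2-fold in its own treatment. Those were 350 rises and 236 falls in mock leaves, and 219 rises and 103 falls in paraquat leaves. The counts of the classes thus have unlike bases. All 7 probe sets that changed at least 2-fold in opposite directions are in both classes. Both classes were chosen by these values, and how much of either comes from that choice was not tested. PUB19, a U-box ubiquitin ligase known from drought responses, lay just inside the class with a gap of 1.00 log2 units (0.64 in paraquat and 1.64 in mock leaves), and CML38 just outside with 0.99.

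Of the 67 weaker rises, 43 had the same sign in paraquat leaves and 24 had turned. At or below the floor on at least 1 array were 23, and 8.92% of all probe sets. The averaged test called 24 of the 67 higher, beside 5.12% of all probe sets. The class needs a mock change of at least 2-fold, which by itself raises the share called. The median change was 0.23 in paraquat and 1.68 in mock leaves. The gap between treatments was larger at 4 h than at 2 h in 52 of the 67, and the median paraquat over mock log2 ratio by hour was 0.25 (1 h), 0.45 (2 h) and -0.92 (4 h). At 1 h paraquat leaves were above mock leaves in 53 of the 67, beside 49.7% of all. The 2 h and 4 h ratios are from the signals that chose the class, which pushes them apart in this direction, so of these values only those at 1 h come from arrays the choice did not use. SAG29, SKP2A and ALDH7B4, given above, belong to them.

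LTI30, a dehydrin of cold and drought, had the widest gap among the named weaker rises. Its signal was 408 in paraquat and 1430 in mock leaves at 4 h, against 439 and 287 at 2 h, after 403 and 510 at 1 h. The change was -0.10 in paraquat and 2.19 in mock leaves, so its level in paraquat leaves stayed within a narrow range over the 3 hours. COR15A, which stabilises chloroplast membranes in the cold, read 342 and 864 at 4 h in paraquat and mock leaves, against 382 and 403 at 2 h (-0.14 and 1.04). At 1 h it had read 579 and 591. COR15B had changes of 0.07 and 0.64, with 658 and 653 at 2 h, after 730 and 892 at 1 h. COR47, given above, had changes of 1.15 and 1.89. All 4 tested members of the list had the smaller change in paraquat leaves, as did 55.7% of all probe sets tested. The list median was -0.01 in paraquat and 1.46 in mock leaves. In mock leaves all 4 were lower at 2 h than at 1 h.

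AT2G41190, of the amino acid transporter family, rose in the averaged test by 1.54 ± 0.36 (limma adjusted p = 0.041), with 840 and 2239 at 4 h in paraquat and mock leaves, against 527 and 382 at 2 h. The call was lost with the stricter prior (adjusted p = 0.078) and without the mock 2 h array (1.08, limma adjusted p = 0.14). PUB19 rose in it by 1.14 ± 0.23 (limma adjusted p = 0.027), with 521 and 776 at 4 h, against 322 and 226 at 2 h, and 59.6 and 79.4 at 1 h. It was lost with the stricter prior (adjusted p = 0.053) and without the mock 4 h or mock 2 h array (0.82 and 0.71, limma adjusted p = 0.11 and 0.15).

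APL3, a large subunit of the starch-synthesis enzyme ADP-glucose pyrophosphorylase, read 279 and 609 at 4 h in paraquat and mock leaves, against 408 and 259 at 2 h (-0.50 and 1.13). AT2G25625 read 288 and 996 at 4 h, against 240 and 218 at 2 h (0.23 and 2.03). AT2G37870, of the lipid-transfer protein family, read 109 and 383 at 4 h, against 174 and 152 at 2 h (-0.54 and 1.17). In these 3 genes mock leaves alone were higher at 4 h than at 2 h by over 2-fold. AT1G11210 went opposite ways, with 128 and 655 at 4 h in paraquat and mock leaves, against 327 and 307 at 2 h (-1.15 and 1.02). AT5G63480 read 156 and 195 at 4 h, against 155 and 23.7 at 2 h (0.01 and 1.99), after 203 and 68.9 at 1 h. Its mock signals at 1 h and 2 h were both below the floor.

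Of the 60 weaker falls, 31 had the same sign in paraquat leaves and 29 had turned, and 26 were at or below the floor on at least 1 array. The averaged test called 15 of the 60 lower, beside 4.05% of all probe sets, a share again raised by the choice of the class. The median change was -0.01 in paraquat and -1.55 in mock leaves. The gap between treatments was larger at 4 h than at 2 h in 54 of the 60, and the median paraquat over mock log2 ratio by hour was -0.12 (1 h), -0.43 (2 h) and 1.18 (4 h). At 1 h paraquat leaves were above mock leaves in 24 of the 60, beside 49.7% of all. As for the rises, the gap count and the 2 h and 4 h ratios are from the signals that chose the class. Only the 1 h values come from arrays the choice did not use.

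AT5G51440, a small heat shock protein gene, read 836 in paraquat and 130 in mock leaves at 4 h, against 396 and 616 at 2 h, after 119 and 136 at 1 h. Fes1A, a nucleotide exchange factor of cytosolic Hsp70, read 1794 and 574 at 4 h, against 1142 and 1827 at 2 h, after 547 and 595 at 1 h. Hop3, which links Hsp70 and Hsp90, read 153 and 54.3 at 4 h, against 126 and 265 at 2 h, after 51.6 and 74.4 at 1 h. In mock leaves the 3 genes peaked at 2 h and were back near their 1 h signals at 4 h, and in paraquat leaves they were higher at each later hour.

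AT5G48570 (ROF2), a heat-inducible immunophilin of the FKBP type, peaked at 2 h in both treatments, with 510, 1502 and 741 at 1, 2 and 4 h in paraquat leaves and 639, 2050 and 421 in mock leaves. It fell in the averaged test by 1.59 on the log2 scale (limma adjusted p = 0.013). Hsp70-2, a cytosolic Hsp70, fell alike in both, with 2795 and 3341 at 4 h in paraquat and mock leaves, against 4690 and 6111 at 2 h (-0.80 ± 0.10, limma adjusted p = 0.0067). The chaperone and cochaperone group, put together after these values were seen, held 8 tested genes. Of these 3 fell and none rose, beside 3.68% lower and 4.23% higher of all genes. Its median change was 0.43 in paraquat and -1.69 in mock leaves, beside -0.04 and -0.02 over all genes tested. The list of heat shock genes alone held 4 tested members, none passing, with medians of 1.14 in paraquat and -0.58 in mock leaves.

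**Figure D4:**
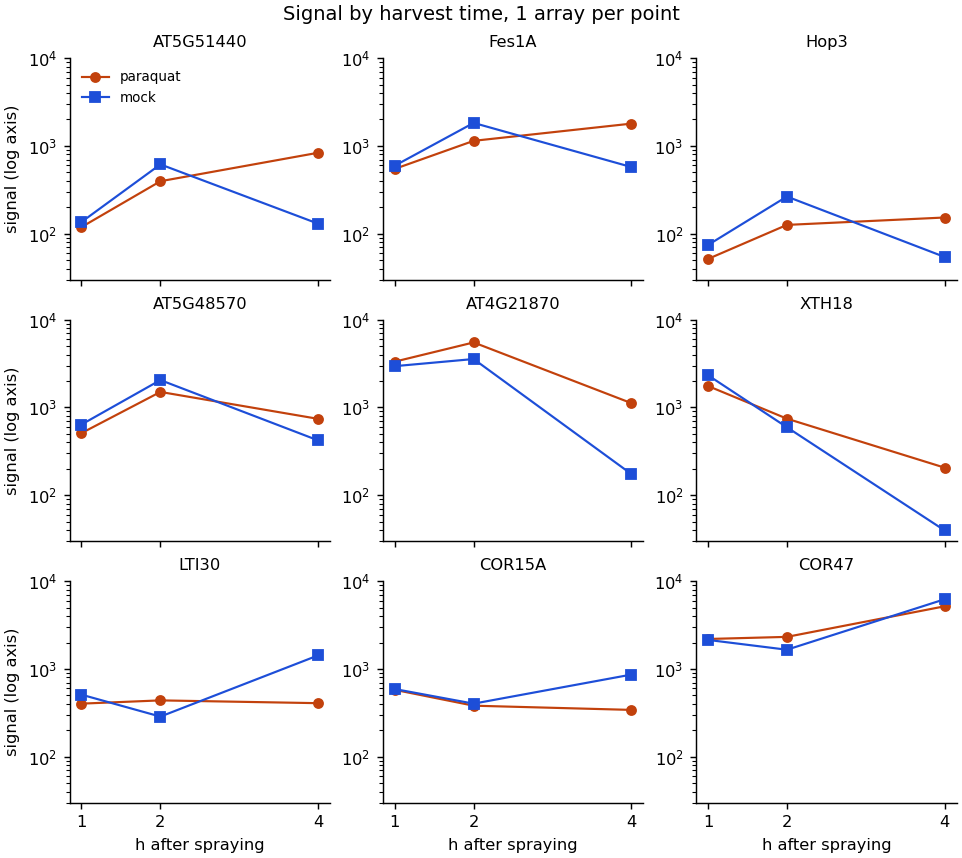
Signal on a log axis against the hour after spraying, 1 array per point, with paraquat leaves as circles and mock leaves as squares, for 6 genes that were lower in mock leaves at 4 h than at 2 h and for 3 cold and drought genes. AT5G51440, Fes1A and Hop3 peak at 2 h in mock leaves and are highest at 4 h in paraquat leaves, and LTI30 and COR15A are higher at 4 h than at 2 h in mock leaves only.

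AT1G26380, a berberine bridge enzyme-like oxidase gene of the pathogen response, read 439 and 88.3 at 4 h in paraquat and mock leaves, against 767 and 618 at 2 h. It passed the averaged test (-1.59 ± 0.34, limma adjusted p = 0.032), but not with the stricter prior (adjusted p = 0.062) or without the mock 4 h or mock 2 h array (-0.97 and -0.96, limma adjusted p = 0.062 and 0.063). A family member, AT1G30700, read 104 and 35.3 at 4 h, against 105 and 265 at 2 h (0.00 and -2.11). AT1G22810, an AP2/ERF transcription factor gene, read 219 and 35.2 at 4 h, against 242 and 213 at 2 h (-0.13 and -1.83), and AT2G22880, which encodes a VQ-motif protein, 309 and 28.8 against 265 and 138 (0.20 and -1.45). PUB23, a partner of PUB22, read 368 and 111 at 4 h, against 460 and 385 at 2 h (-0.30 and -1.53), and CML42 read 1071 and 543, against 1198 and 1328 (-0.16 and -1.24). The mock 4 h signal was the lowest of the 4 in each of these genes, while the paraquat signals of the last 5 differed by less than 1.3-fold between 2 and 4 h.

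In the mirror class, AT1G54050, a small heat shock protein gene, read 868 in paraquat and 83.7 in mock leaves at 4 h, against 91.1 and 64.0 at 2 h (2.85 and 0.26). AT1G05575 read 1507 and 156 at 4 h, against 542 and 319 at 2 h (1.42 and -0.89). AT3G15800 read 91.5 and 63.7 at 4 h, against 9.9 and 109 at 2 h, so its paraquat change of 1.52 started from a signal far below the floor. Of the weaker falls in mock leaves, AT1G15010 had a change of -1.31 in paraquat and -0.06 in mock leaves, AT1G24530 -1.06 and 0.07, and AT5G65250 -1.01 and 0.02. Changes of at least 2-fold in opposite directions were found for 7 probe sets, 1 higher and 6 lower in mock leaves at 4 h.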

How the data were processed

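The values in the deposited table are linear signal intensities, 1 per probe set and array. Per the submitters' processing notes they come from MAS5, and its version is not given in the sources used here. Every array has a trimmed mean of 500.04, so the authors' values were already scaled to a common level, which removes any difference in total RNA. Precision is limited by the number of arrays, 1 per group.

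Leaving out 64 control probe sets gave 22746. No further normalization was applied, and values were analysed as log2(signal + 34), which understates changes of dim probe sets. The comparison was fitted with limma 3.58.1 (R 4.3.3), using lmFit and eBayes with a variance trend, on 4 arrays, with harvest hour and treatment as terms, 1 residual and 6.21 prior degrees of freedom, two-sided, Benjamini-Hochberg over all probe sets tested, threshold 0.05. P-values measure only the spread between these arrays. The test was tried on simulated data, and a prior fitted by maximum likelihood (4.82 degrees of freedom) was added because limma's own gave too many calls there.

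In the annotation used, 8730 probe sets name no gene, 503 name several and 13513 name a single one, which could be matched to the TAIR10.1 gene table in 13436 cases. No build is named by the files, so no coordinates are given. Of 417 entries in 28 lists of loci, only 52 were tested through a probe set of their own, and 25 families were taken from symbols, with 23 further symbol groups of at least 6 tested genes (SWEET, TBL and ATG among them).

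Genes named are the 12 highest and 12 lowest called mean changes, the 8 rises and 8 falls with the largest shortfall under paraquat, 4 each of the mirror class, up to 4 members of each list or family with at least 3 tested genes, and any tested clock gene, with the brightest probe set for each gene. Genes outside this rule are named as chosen after their values were seen, which also holds for ATPMEPCRB, UGT72B3, ALDH7B4, UGT73B5, IAGLU and the glycosyltransferases past the first 4. The members, lists and tests were all chosen with earlier results of these data known. Promoter motifs and sequences were not analysed here.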

Additional observations from a re-analysis of the deposited data

Results flagged for a closer look

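The genes in this section had changes of opposite sign in paraquat and mock leaves between 2 and 4 h, though in several the change in 1 treatment was close to 0. With 1 array per treatment and hour, the difference between the treatments was not tested, and a deviant array cannot be told apart from a difference in response. The values are the paraquat change minus the mock change on the log2(signal + 34) scale. Among cold, drought and starch genes the difference was -2.29 for LTI30 and -1.63 for APL3. It was 3.01 for AT5G51440, 2.25 for Fes1A and 1.98 for Hop3. It was 2.31 for AT1G05575, 2.06 for AT3G15800 and 1.65 for AT2G22880, and -2.17 for AT1G11210, -1.70 for AT2G37870, -1.13 for AT1G24530 and -1.03 for AT5G65250. The mock change was only 0.07 in AT1G24530 and 0.02 in AT5G65250, and the paraquat change only -0.10 in LTI30 and 0.20 in AT2G22880, so in these 4 the sign of the smaller change carries no weight. The genes were chosen for this gap, so the values are a description.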

How the results depend on the processing

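The labels give no replicate numbers and each group has 1 array, so the 4 h and 2 h arrays were paired by treatment alone, as a block. The fit without the treatment as a block called 367 higher and 258 lower, losing among others AT4G21870, AT5G62360, WRKY53, EXGT-A3 and ATPMEPCRB (limma adjusted p = 0.054 to 0.066), and the fit without a variance trend 377 and 232. Without the filter on low signals limma called 0 higher and 0 lower over 22746 probe sets (3745 at an unadjusted p under 0.05). Leaving out 1 array at a time, in the fit on all 6 arrays, gave 267 to 807 higher and 152 to 746 lower, of which 256 and 142 were also called in the reported fit at the lowest counts. The remaining settings kept the counts of calls within 1.5 times, from 532 to 889 higher and from 386 to 734 lower, the highest after quantile normalization. Classes of fold size depended on the pseudocount and the filter. With a pseudocount 4 times smaller, 86 probe sets were at least 2-fold lower in both treatments, 101 rises and 96 falls were weaker under paraquat, and 23 falls were weaker under mock. With one 4 times larger, 64 were at least 2-fold higher and 29 lower in both, 29 rises and 25 falls were weaker under paraquat, and 19 rises and 1 fall under mock. With a signal above 86 on all 4 arrays, 44 rises and 34 falls were weaker under paraquat, and 24 rises and 5 falls under mock. Without the filter these were 113, 151, 83 and 69. At 3-fold, 16 were higher and 8 lower in both. At 1.5 log2 units weaker, 28 rises and 24 falls were weaker under paraquat, and 24 rises and 3 falls under mock. A 4 times smaller or larger pseudocount moved the mean changes of the dim genes AT5G44910, AT3G23550, PUB22, WRKY22, CYP71B22, SWEET13, TBL38, CHIL and UGT85A2 by over 1.5 times and kept their sign and call. Of 71 named genes that passed, 53 passed with the maximum-likelihood prior and 35 under every setting other than the absent filter. The 71 include SAG29, AT1G10585, AT3G02480, BSMT1 and AT2G41990, which entered through 1 hour alone and had to differ. With 1 array left out, the mean change of AT1G11210 ran from -1.20 (without mock 4 h) to 1.06 (without paraquat 4 h), that of AT5G51440 from -1.88 (without paraquat 4 h) to 0.90 (without mock 4 h), and that of AT1G05575 down to -1.03 (without paraquat 4 h), since 1 treatment then sets most of the change. The causes of the other differences were not tested. No list or family median changed sign after quantile normalization or centring on the 75th percentile.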
